A study of Homo sapiens with 8 samples.

Results

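The RNA sensing genes described here are 7 genes chosen by name: the RIG-I-like receptors DDX58 (RIG-I), IFIH1 (MDA5) and DHX58 (LGP2), their adaptor MAVS, and EIF2AK2 (PKR), ADAR and ZBP1. All 7 were found among the 57722 genes that the count tables of both cell lines share. Double-stranded RNA in the cytoplasm marks viral infection, and it also arises from a cell's own transcripts. RIG-I and MDA5 bind such RNA and engage MAVS on mitochondria, which activates IRF3 and NF-κB and so the interferon genes. Most of these sensors are themselves interferon-stimulated genes (ISGs), so a cell that responds to interferon makes more of them. ADAR edits double-stranded RNA and thereby keeps MDA5 and PKR from responding to the cell's own RNA.

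The study knocked down PRMT9, a protein arginine methyltransferase, in 2 human acute myeloid leukemia (AML) lines with a monocytic phenotype, Molm13 and THP1. In each line, cells carrying a control hairpin (shCtrl, genotype label WT) were compared with cells carrying a PRMT9 hairpin (shPRMT9, genotype label PRMT9 knockdown), and cells of all 4 groups received doxycycline (Dox induction) to switch the hairpin on. Each group held 2 poly(A) RNA-seq libraries, 8 in all, with totals of 18720950 to 27356870 counts. The labels do not say whether libraries 1 and 2 of a group came from separate cultures. The study also numbers its PRMT9 hairpins this way, so p-values measure the spread between these libraries, which may be technical or lie between hairpins.

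PRMT9 itself was counted 332 and 289 times in the Molm13 shCtrl libraries and 41 and 56 times after KD. In THP1 it was counted 317 and 352 times in shCtrl and 60 and 68 times after KD. PRMT9 fell by 2.68 (SE 0.14) and 2.29 (SE 0.13) on the log2 scale in Molm13 and THP1, and that difference between the lines was 0.40 (edgeR quasi-likelihood test, adjusted p = 0.146). The letters OCI stand in the library names of THP1 without an explanation in the labels. Of 12 myeloid markers, 11 exceeded 1 RPKM in both libraries of every group except THP1 shPRMT9, where all 12 did. The summed level of the 12 markers was 2494 to 2500 CPM (counts scaled to the size of the library) in Molm13 shCtrl and 3543 to 3575 in Molm13 shPRMT9, against 4247 to 4309 and 5222 to 5321 in THP1. The sum was higher after KD in both lines, beside the sensor genes, but the markers did not move as one. Both KD libraries stood above both shCtrl libraries for 9 markers and below them for 3 (MPO, FCGR1A and ELANE) in Molm13, and for 6 and 5 (MPO, CSF3R, CEBPA, AZU1 and ELANE) in THP1. Without LYZ (lysozyme), left out after the values were seen, the sum of the other 11 was 1852 to 1859 CPM in shCtrl and 2535 to 2579 after KD in Molm13, and 2348 to 2427 and 2196 to 2251 in THP1, where it was lower after KD. The part of these markers in the results was not tested. Fewer cells of a type and less RNA per cell cannot be told apart in such bulk libraries. Of 8 B cell markers at most 1 exceeded 1 RPKM in any group, with MS4A1 at 0 in 6 of the 8 libraries, and their sum was 43.2 to 43.7 CPM in shCtrl and 39.5 to 41.2 after KD in Molm13. In THP1 the B cell sum was 4.81 to 5.19 CPM in shCtrl and 12.8 to 14.8 after KD, where PAX5 was counted 64, 86, 298 and 276 times, and its part in the results was not tested. Of 7 T and NK cell markers NCAM1 alone exceeded that level in every group, at summed levels of 157 to 207 CPM, and CD3E was at 0 in every library but 1. The 6 erythroid and megakaryocytic markers summed to 0.239 to 1.03 CPM.

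The promoter windows of the sensor genes differed in their matches to 1 interferon motif. RefSeq promoter windows (GRCh38.p14, 250 bases before to 50 after a start) were at hand for 5 of the 7 genes, in 7 windows. They were searched on both strands for GAAANNGAAA, the core of the interferon-stimulated response element (ISRE), which factors of the interferon response bind. IFIH1 held 3 matches in its window, a pair of which overlap, and EIF2AK2 held 1 across its start. None of the windows of DDX58, MAVS and ADAR (3 starts) held the letters. The DDX58 window did hold gaaacgaaa, in which GAAA repeats at a shorter gap, and the search did not count this. That repeat lies farther before the start than the DDX58 stretch shown. Of all 35116 promoters of this length, 3.57% held a match. TTCNNNGAA, the gamma-activated site, which 7.66% of all promoters held, was in none of the members' windows. A match is a description of the letters and not evidence of binding. The stretches around the matches are shown to set them beside the windows of DDX58 and MAVS, which had none. They read 5′ to 3′ in the direction of the gene, with matched letters in capitals (on the opposite strand in the first IFIH1 stretch). They lie at chr2:162318806-162318865 (minus strand) and chr2:162318674-162318727 (minus) for IFIH1, chr2:37156955-37157008 (minus) for EIF2AK2, chr9:32526175-32526228 (minus) for DDX58 and chr20:3846802-3846855 (plus) for MAVS.
IFIH1, 181 to 122 bases before the start: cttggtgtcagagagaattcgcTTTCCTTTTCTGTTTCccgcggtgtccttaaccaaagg
IFIH1, across the start: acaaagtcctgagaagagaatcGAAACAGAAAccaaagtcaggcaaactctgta
EIF2AK2, across the start: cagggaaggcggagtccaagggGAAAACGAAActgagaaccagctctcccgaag
DDX58, across the start: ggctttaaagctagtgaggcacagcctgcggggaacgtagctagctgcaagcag
MAVS, across the start: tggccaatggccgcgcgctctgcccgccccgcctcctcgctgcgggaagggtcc

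PRMT9 KD upregulated 4 of the 6 sensor genes that could be tested in Molm13 and 5 of 6 in THP1, and downregulated none in either. ZBP1 had too few counts to be tested. A gene was called differentially expressed at an adjusted p below 0.05 (edgeR quasi-likelihood test, Benjamini-Hochberg over all genes tested), a fold change above 1.5 either way and a level above 1 RPKM in at least 1 library. RPKM here is the TMM-scaled CPM per kilobase of exon. In Molm13 this rule called 11.4% of all 16446 tested genes higher and 11.3% lower, 22.8% in all. In THP1 it called 3.82% of 16294 higher and 2.39% lower, 6.21% in all. These 6 had a median log2 fold change of 0.67 (Molm13) and 1.64 (THP1), against 0.00047 and -0.00063 over all genes tested. By the adjusted p alone, 5 of the 6 were higher and 1 lower in each line, where 33.4% and 33.5% of all genes were so called in Molm13 (66.9% in all) and 19.0% and 18.6% in THP1 (37.6%). IFIH1 and DHX58 also belong to a PRMT9 KD signature that the study built, so their direction is not independent evidence.

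**Figure D1:**
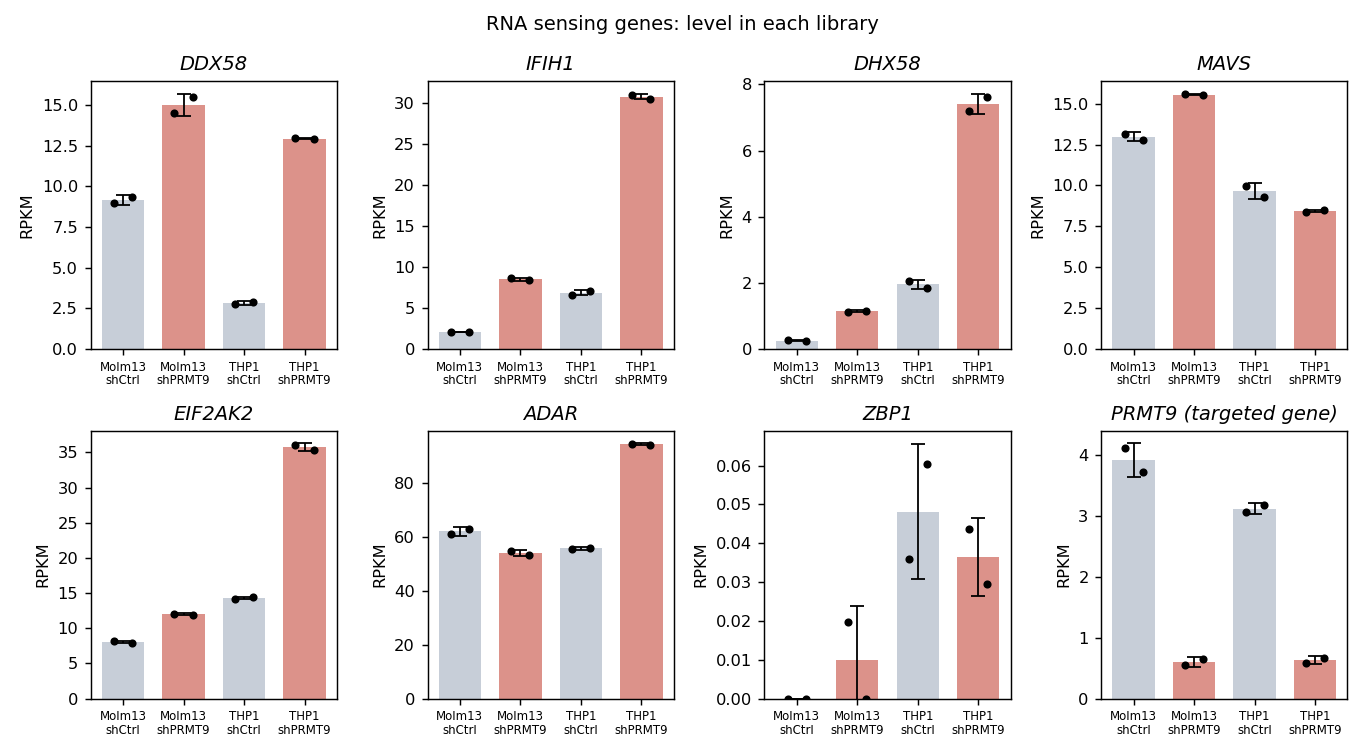
Level in RPKM (y axis, from 0) of each RNA sensing gene and of PRMT9 in each of the 8 libraries, by line and hairpin; points are libraries, bars are means of 2 and error bars are SD. The IFIH1 mean is 2.04 RPKM in shCtrl and 8.48 after KD in Molm13, and 6.83 and 30.8 in THP1, while the ADAR mean is lower after KD in Molm13 and higher in THP1.

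DDX58 encodes RIG-I, which recognizes short double-stranded RNA with a 5′ triphosphate. The gene (ENSG00000107201) lies at chr9:32455705-32526324 on the minus strand of hg38. In Molm13 its level was 8.96 and 9.36 RPKM in shCtrl and 14.5 and 15.5 RPKM after KD, from 785, 789, 1181 and 1440 counts. The THP1 levels were 2.73 and 2.90 RPKM in shCtrl and 12.9 in both KD libraries, from 307, 348, 1433 and 1414 counts. The KD libraries were higher than both shCtrl libraries in each line. DDX58 thus rose 1.66-fold in Molm13 (log2 fold change 0.73, SE 0.05, adjusted p = 1.5e-16) and 4.64-fold in THP1 (2.21, SE 0.07, adjusted p = 1.1e-20). Molm13 started from the higher level, and the order of the group means was Molm13 shPRMT9, THP1 shPRMT9, Molm13 shCtrl and THP1 shCtrl, with no overlap between neighbours.

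IFIH1 encodes MDA5, the receptor for long double-stranded RNA. It (ENSG00000115267) lies at chr2:162267079-162318703 on the minus strand. Its level was 2.04 and 2.03 RPKM in the Molm13 shCtrl libraries and 8.61 and 8.35 after KD. The level in THP1 was 6.62 and 7.04 RPKM in shCtrl and 31.0 and 30.5 after KD. IFIH1 rose in both lines, 4.22-fold in Molm13 (log2 fold change 2.08, SE 0.08, adjusted p = 3.0e-26) and 4.56-fold in THP1 (2.19, SE 0.05, adjusted p = 6.0e-24). The level after KD in Molm13, 8.48 ± 0.181 RPKM (SD, n = 2), was only a little above that of THP1 shCtrl, 6.83 ± 0.299, and the libraries did not overlap.

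DHX58 encodes LGP2, which lacks the signaling domains of the other 2 receptors and modulates them. It (ENSG00000108771) lies at chr17:42101404-42112733 on the minus strand. It was counted 20 and 18 times in Molm13 shCtrl and 81 and 95 times after KD. In THP1 it was counted 203 and 196 times in shCtrl and 704 and 737 times after KD. DHX58 rose 4.61-fold in Molm13 (log2 fold change 2.20, 95% interval 1.73 to 2.68, adjusted p = 3.2e-11) and 3.85-fold in THP1 (1.95, 1.77 to 2.13, adjusted p = 1.3e-16). It remained the lowest of the 6 tested genes per length, at 0.250 ± 0.0118 to 1.14 ± 0.0213 RPKM in Molm13 and 1.95 ± 0.140 to 7.41 ± 0.303 in THP1. Its level after KD in Molm13 was thus below that of THP1 shCtrl.

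MAVS, the mitochondrial adaptor that both signaling receptors need, was not called in either line. The gene (ENSG00000088888) lies at chr20:3846799-3876123 on the plus strand. Its level was 13.2 and 12.8 RPKM in Molm13 shCtrl and 15.6 and 15.5 after KD. The THP1 libraries held 9.98 and 9.30 RPKM in shCtrl and 8.37 and 8.47 after KD. The log2 fold change was 0.28 in Molm13 (SE 0.03, adjusted p = 1.2e-10) and -0.18 in THP1 (SE 0.04, adjusted p = 0.0016), both short of the 1.5-fold limit. Without THP1 shCtrl replicate 1, the THP1 value was -0.12 with an adjusted p of 0.099. Counts per gene do not separate the isoforms of MAVS.

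EIF2AK2 encodes PKR, a kinase that is activated by double-stranded RNA and halts translation by phosphorylating eIF2α. The gene (ENSG00000055332) lies at chr2:37099210-37157065 on the minus strand. Its level was 8.16 and 7.93 RPKM in Molm13 shCtrl and 12.1 and 11.9 after KD. The THP1 libraries held 14.2 and 14.4 RPKM in shCtrl and 36.1 and 35.3 after KD. EIF2AK2 rose 2.53-fold in THP1 (log2 fold change 1.34, SE 0.03, adjusted p = 1.1e-22). In Molm13 its fold was 1.51 (0.60, SE 0.04, adjusted p = 2.4e-18), just inside the limit. The log2 fold change there was 0.58 without Molm13 shCtrl replicate 2 or without a filter on low counts, which is just outside, so that 3 members were called. EIF2AK2 was the only member whose exons other annotated genes overlap, both on the opposite strand: GPATCH11 over 35 bases, and the pseudogene AC007899.1 over 401 bases, which is 3.73% of its exon length. The strand setting of the counting is not given in the sources used here.

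ADAR encodes the main adenosine deaminase acting on double-stranded RNA, with an interferon-inducible long form and a constitutive short form that counts per gene cannot separate. The gene (ENSG00000160710) lies at chr1:154582062-154627999 on the minus strand. It had the highest level of the 7 genes in every library. In Molm13 its level was 60.8 and 62.9 RPKM in shCtrl and 54.8 and 53.0 after KD. In THP1 it was 55.3 and 55.9 RPKM in shCtrl and 94.4 and 93.9 after KD. ADAR rose 1.71-fold in THP1 (log2 fold change 0.78, SE 0.03, adjusted p = 1.4e-18). In Molm13 the log2 fold change was -0.18 (SE 0.03, adjusted p = 4.8e-08), in the opposite direction and short of the fold limit. The closest neighbours in the order of its group means were THP1 shCtrl at 55.6 ± 0.420 RPKM and Molm13 shPRMT9 at 53.9 ± 1.25, which were set apart by little more than the spread of the latter.

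ZBP1, a sensor of Z-form nucleic acids that starts necroptosis, was close to undetected. The gene (ENSG00000124256) lies at chr20:57603846-57620576 on the minus strand. It was counted 0 and 0 times in Molm13 shCtrl and 2 and 0 times after KD, and 5, 9, 6 and 4 times in THP1. A count of 0 allows up to 3 counts, or 0.147 and 0.152 CPM in the Molm13 shCtrl libraries, for counting error only. No change of ZBP1 was detectable at this depth.

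The changes of 4 of the 6 tested genes differed between the lines, 3 being larger in THP1 and 1 smaller. The difference was tested as the interaction of line and hairpin over all 8 libraries (edgeR quasi-likelihood test, Benjamini-Hochberg over 19288 genes), where 42.2% of all genes differed, 22.8% with the larger value in THP1 and 19.4% with the smaller. For DDX58 the log2 fold change was 1.49 larger in THP1 (95% interval 1.31 to 1.67, adjusted p = 2.8e-27), so that the fold was 2.82 times that in Molm13. For ADAR it was 0.97 larger (0.89 to 1.04, adjusted p = 9.3e-40) and for EIF2AK2 0.75 larger (0.66 to 0.85, adjusted p = 1.1e-24). For MAVS the THP1 value minus the Molm13 value was -0.45 (-0.55 to -0.34, adjusted p = 4.9e-12). MAVS and ADAR had opposite signs in the 2 lines. IFIH1 and DHX58 did not pass the test, with differences of 0.12 (-0.08 to 0.32, adjusted p = 0.36) and -0.25 (-0.77 to 0.28, adjusted p = 0.51). The lines may also have been handled separately, which cannot be told apart from the line.

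**Figure D2:**
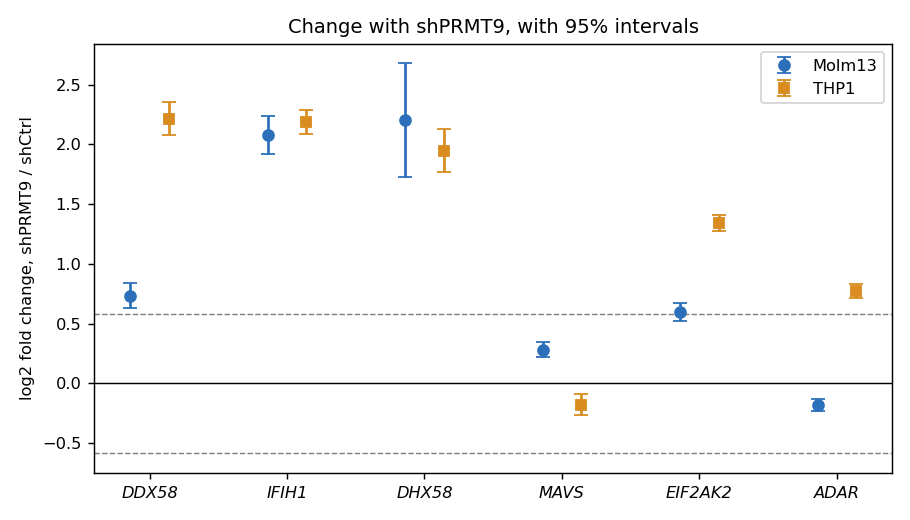
Log2 fold change of shPRMT9 over shCtrl (y axis) for the 6 tested genes in Molm13 and THP1, with 95% intervals from the edgeR fits of 4 libraries each and dashed lines at the 1.5-fold limit. IFIH1 and DHX58 lie near 2 in both lines, DDX58 lies at 0.73 and 2.21, and ADAR and MAVS lie on opposite sides of 0.

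The groups of each of the 6 tested genes did not overlap in either line on the TMM-scaled CPM. With 2 libraries a group this was common, since 81.8% of all tested genes in Molm13 did not overlap (40.1% higher and 41.7% lower after KD), and 66.3% in THP1 (31.5% and 34.9%).

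Set side by side per length, the makeup of the sensor genes moved with KD. Their summed level was 93.4 and 95.3 RPKM in Molm13 shCtrl, and 107 and 105 after KD. In THP1 it was 90.9 and 91.4 RPKM in shCtrl, and 190 and 189 after KD. The lines therefore started from similar sums and stood far apart after KD. ADAR took 65.1% and 66.1% of the sum in Molm13 shCtrl and 51.3% and 50.3% after KD, and in THP1 60.8% and 61.1%, then 49.7% in both KD libraries. The share of IFIH1 was 2.19% and 2.13% in Molm13 shCtrl and 8.06% and 7.92% after KD, against 7.28% and 7.70%, then 16.3% and 16.2%, in THP1. The share of MAVS stayed between 13.4% and 14.7% in Molm13, while in THP1 it was 11.0% and 10.2% in shCtrl and 4.40% and 4.49% after KD. These shares are a description, with no test.

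**Figure D3:**
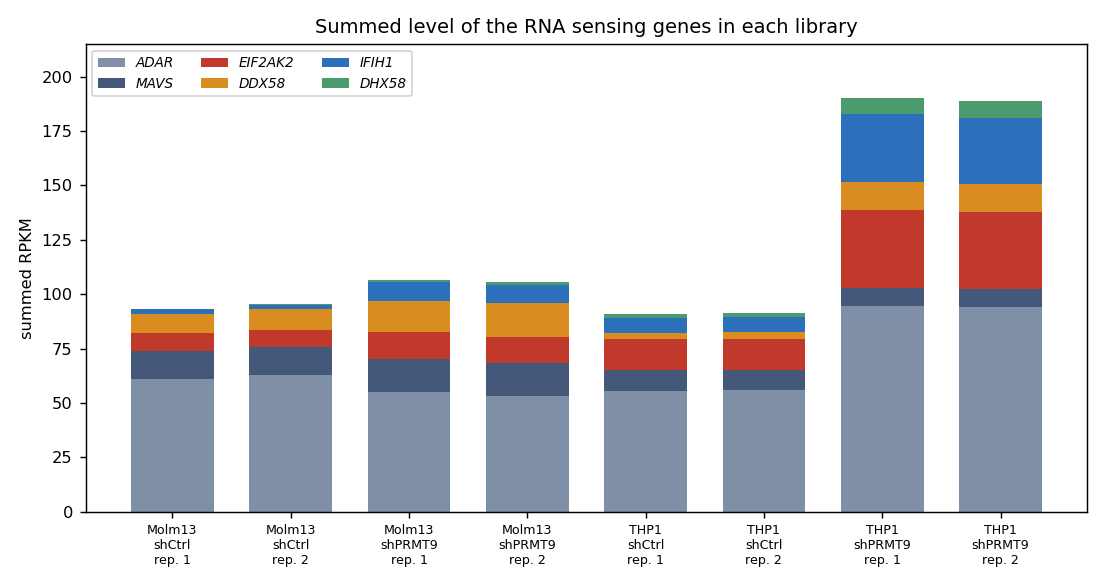
Summed RPKM of the RNA sensing genes (y axis, from 0) in each of the 8 libraries, each bar stacked by gene (ZBP1, at most 0.0661% of a sum, is not drawn). The Molm13 bars stand between 93.4 and 107, and the THP1 bars near 91 in shCtrl and near 190 after KD, with ADAR the largest block in each.

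The ratio of MDA5 to RIG-I transcripts separated the lines. It was 0.222 ± 0.00771 (RPKM over RPKM, SD, n = 2) in Molm13 shCtrl and 0.566 ± 0.0382 after KD. The THP1 ratio was 2.42 ± 0.00537 in shCtrl and 2.38 ± 0.0238 after KD. RIG-I was thus the more abundant receptor transcript per length in every Molm13 library and MDA5 in every THP1 library. The ratio of ADAR to EIF2AK2 was 7.69 ± 0.343 and 4.49 ± 0.0690 in Molm13 shCtrl and shPRMT9, and 3.89 ± 0.0121 and 2.64 ± 0.0330 in THP1. The ratio of MAVS to RIG-I was 1.42 ± 0.0732 and 1.04 ± 0.0512 in Molm13, and 3.43 ± 0.315 and 0.651 ± 0.00614 in THP1. The group mean was higher for MAVS in 3 of the groups and for RIG-I in THP1 shPRMT9, and the ratio was 1.00 in Molm13 shPRMT9 replicate 2. Exon lengths here span the annotated isoforms of a gene, so ratios and shares between genes are not numbers of transcripts. The ratio of LGP2 to MDA5 was lowest of these, at 0.123 ± 0.00533 and 0.135 ± 0.00538 in Molm13 and 0.286 ± 0.0330 and 0.241 ± 0.0125 in THP1.

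The genes whose log2 CPM over the 8 libraries ran closest to each member were found among 19288 genes by the root mean square difference after centring each gene on its own mean. For DDX58 these were TRIM22 (0.136), MPEG1 (0.207) and IL15RA (0.230). For IFIH1 they were SAMD9L (0.130), C3 (0.161) and SERPINA1 (0.240). For DHX58 they were APOL1 (0.277), UBE2L6 (0.292) and RENBP (0.292). The genes near EIF2AK2 included BST2 (0.0627) and PSMB8-AS1 (0.115). ADAR ran closest to DYNLT1 (0.0726), ZNFX1 (0.0827) and SEC24A (0.0922). TRIM22, SAMD9L, BST2 and UBE2L6 are known ISGs. MAVS ran closest to RPL8 (0.0257), FLI1 (0.0285) and NSMCE1 (0.0316). The 8 libraries share line and hairpin, and the values describe likeness only.

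Around the receptors, most genes that switch RIG-I and MDA5 on or off were not called. Of 16, KD upregulated 2 and downregulated none in Molm13, with a median log2 fold change of 0.19, and in THP1 it upregulated 4 and downregulated 1, with a median of 0.16. DDX60, a helicase that promotes RIG-I signaling, was the most changed in both lines, at 1.05 in Molm13 (656, 648, 1228 and 1482 counts, adjusted p = 1.2e-21) and 1.81 in THP1 (839, 1030, 3190 and 2934 counts, adjusted p = 8.8e-21). RNF122 (0.68) was the other gene called in Molm13. CYLD (0.91), a deubiquitinase, was the next largest in THP1. The rest there, named after their values were seen, were ubiquitin ligases of RIG-I: RNF135 (0.69) and TRIM25 (0.61) rose, and RNF125 fell by 0.64 on the log2 scale. In Molm13 their log2 fold changes were 0.19 (RNF135), 0.57 (TRIM25) and 0.16 (RNF125). All were short of the fold limit there but higher by the adjusted p alone, so RNF125 had opposite signs in the lines.

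Downstream of MAVS, 3 of 23 signaling genes were upregulated and 1 downregulated in Molm13, beside 11.4% and 11.3% of all tested genes. In THP1, 2 were upregulated and none downregulated, beside 3.82% and 2.39% of all tested genes. The medians were 0.05 and 0.04. IRF7, itself an ISG that drives interferon-α genes, rose by 1.95 on the log2 scale in Molm13 (181, 202, 692 and 788 counts, adjusted p = 6.6e-25) and by 1.61 in THP1 (659, 711, 1932 and 1980 counts, adjusted p = 2.0e-19). IKBKE, the kinase related to TBK1, was called in both lines (0.63 and 0.67). NLRX1 (0.68), named after its value was seen, was the other upregulated gene in Molm13, and its log2 fold change in THP1 was -0.20 (adjusted p = 0.021). CHUK, the kinase IKKα, fell by 1.36 on the log2 scale in Molm13, from 1989 and 1907 counts to 696 and 825. In THP1 the log2 fold change of CHUK was 0.03 (adjusted p = 0.69). By the adjusted p alone, 10 of the 23 were higher and 10 lower in Molm13, beside 33.4% and 33.5% of all tested genes. In THP1, 10 were higher and 4 lower, beside 19.0% and 18.6% of all tested genes.

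The interferon genes at the end of this route were close to undetected. None of 20 type I and III interferon genes could be tested, and 15 had no count in any library. IFNB1 was counted 0, 1, 3 and 2 times in Molm13 (shCtrl 1 and 2, shPRMT9 1 and 2) and 1, 1, 10 and 8 times in THP1. The ratio of the summed IFNB1 counts, scaled by the summed library totals, was 9.43 in THP1 (exact 95% interval 2.26 to 83.8, counting error only) and 5.02 in Molm13 (0.561 to 237). IFNL1 was counted 0, 0, 1 and 6 times in THP1 and not at all in Molm13.

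The 2′-5′ oligoadenylate synthetases, which sense double-stranded RNA and make a 2′-5′ oligoadenylate messenger, gave the largest median of the lists in both lines. Of 7 genes of this list, 5 were upregulated and 1 downregulated in Molm13, beside 11.4% and 11.3% of all tested genes, with a median of 3.06. In THP1, 4 were upregulated and none downregulated, beside 3.82% and 2.39% of all tested genes, with a median of 2.32. OAS2 rose by 4.11 on the log2 scale in Molm13, from 153 and 157 counts to 2482 and 2892 (adjusted p = 5.0e-41), and by 2.62 in THP1, from 2451 and 2722 counts to 14882 and 14879 (adjusted p = 3.7e-29). OASL rose by 3.85 in Molm13 and OAS3 by 3.24 in THP1. Others called, named after their values were seen, included OAS1 (3.16) and OAS3 (3.06) in Molm13 and OAS1 (2.46) and OASL (2.32) in THP1. PDE12, which degrades that messenger, fell by 1.04 on the log2 scale in Molm13, and its log2 fold change was 0.03 in THP1 (adjusted p = 0.62).

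Among the regulators and relatives of PKR, 1 of 10 was upregulated and 2 downregulated in Molm13, beside 11.4% and 11.3% of all tested genes. In THP1, 1 was upregulated and none downregulated, beside 3.82% and 2.39% of all tested genes. The medians were -0.08 and 0.007. PPP1R15A (GADD34), which recruits the phosphatase that reverses eIF2α phosphorylation, rose by 1.52 on the log2 scale in Molm13 (402, 377, 1037 and 1204 counts) and by 0.83 in THP1 (462, 439, 754 and 751 counts). Its constitutive relative PPP1R15B fell by 1.33 in Molm13, from 3344 and 3355 counts to 1254 and 1409. EIF2S1, the substrate eIF2α itself, fell by 0.65 in Molm13 and was named after its value was seen.

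Among the genes that edit, unwind or degrade double-stranded RNA, those called fell in Molm13 and rose in THP1. Of 14 tested genes of 17, 5 were downregulated and none upregulated in Molm13, beside 11.3% and 11.4% of all tested genes. In THP1, 2 were upregulated and none downregulated, beside 3.82% and 2.39% of all tested genes. The medians were -0.18 and -0.03. PNPT1, which degrades mitochondrial double-stranded RNA, fell by 0.96 on the log2 scale in Molm13 (2463 and 2274 counts against 1109 and 1323, adjusted p = 5.3e-24) and rose by 0.67 in THP1 (2614 and 2950 against 4160 and 4145, adjusted p = 2.8e-14). ILF2 fell by 0.76 in Molm13. Others that fell there, named after their values were seen, included DHX9 (by 0.74) and RNASEH2A (by 0.75). SAMHD1 (0.59) was the other gene upregulated in THP1, and its log2 fold change in Molm13 was 0.44.

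Of 8 cell death partners of ZBP1, RIPK3 (0.83) and CASP6 (0.79) were upregulated in Molm13 and none was downregulated. None was called in THP1. There CASP6 was lower by the adjusted p alone (-0.33, adjusted p = 0.011), and RIPK3 did not pass (0.21, adjusted p = 0.18). The medians of this list were 0.42 in Molm13 and 0.28 in THP1. Of all tested genes, 11.4% were called higher and 11.3% lower in Molm13, and 3.82% and 2.39% in THP1. Of the endosomal RNA receptors and their adaptors, 1 of 7 tested was upregulated and 1 downregulated in Molm13, and 2 of 8 were upregulated and none downregulated in THP1, with medians of 0.36 and 0.72. The receptors TLR3, TLR7 and TLR8, named after their values were seen, had low counts and were not called. By the adjusted p alone, TLR8 was higher in Molm13 (1.27) and THP1 (2.09), TLR3 in Molm13 (1.31) and TLR7 in THP1 (1.15). TLR3 in THP1 (0.84) did not pass, and TLR7 could not be tested in Molm13. TICAM1 (TRIF), the adaptor of TLR3, was called in both lines (0.74 and 0.60). MYD88 rose by 1.09 in THP1, and IRAK1 fell by 1.19 in Molm13.

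**Figure D4:**
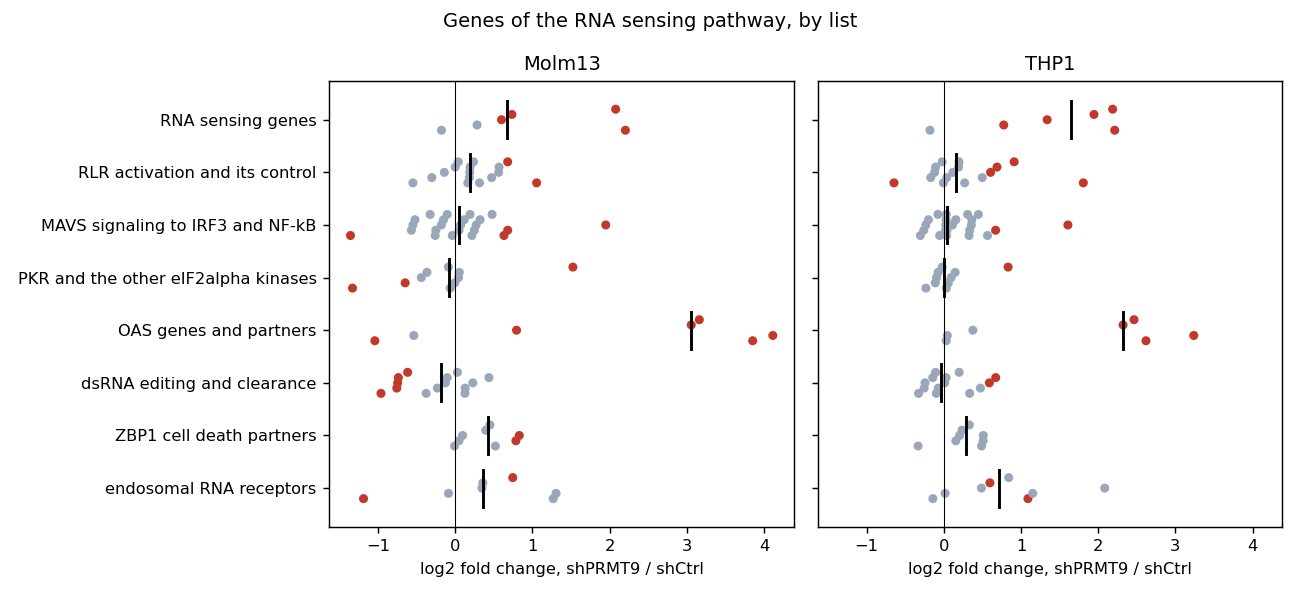
Log2 fold change of shPRMT9 over shCtrl (x axis) for every tested gene of the 7 pathway lists with tested genes and for the RNA sensing genes themselves, in Molm13 (left) and THP1 (right); red points are called, grey points are not, and black bars are medians. The OAS list reaches the largest values, up to 4.11 in Molm13 and 3.24 in THP1, with medians of 3.06 and 2.32.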

How the data were processed

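Poly(A) RNA from 2 human AML lines was sequenced by the authors. They deposited raw counts of reads per gene, 1 table for each line, without normalization. Per the submitters' processing notes, the tools were TopHat2 2.0.8, HTSeq 0.11.2 and edgeR 3.30.3 on hg38. The annotation release and the strand setting are not given in the sources used here. Samples were grouped by line and hairpin from the labels.

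Counts were tested with edgeR 4.0.16 (R 4.3.3), scaled by TMM and filtered by filterByExpr, by its quasi-likelihood test, for each line alone. The difference between lines was tested as an interaction over 8 libraries. The p-values were adjusted by Benjamini-Hochberg over all tested genes. The limits (adjusted p 0.05, fold 1.5, RPKM 1) follow the study's methods. RPKM and levels across lines use TMM factors of all 8 libraries and the exon lengths in the Molm13 table, so levels set across the lines rest on tables counted separately. For IFIH1 and ADAR the GENCODE 29 exon length differs (5108 and 9691 bases against 4528 and 8356).

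The members and gene lists were chosen with earlier results of these data known. Named genes were the members, PRMT9, the 2 most changed called genes of each list with a mean of at least 20 counts, interferon genes with over 3 counts, the 3 genes nearest in pattern to each member, and genes that overlap a member. Some genes that this rule takes are not reported here. Replicates differed by more than sampling noise. The fits were tested on simulated data. Alternatives were limma 3.58.1 (voom), DESeq2 1.42.0, other scalings and filters, other limits, a replicate block and leaving out each library.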

Additional observations from a re-analysis of the deposited data

Results flagged for a closer look

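These 4 results stood out because the change with PRMT9 KD differed between the lines by the test of the interaction over 8 libraries, as given in the report with intervals. The log2 fold change in THP1 minus that in Molm13 was 1.49 for DDX58, 0.97 for ADAR, 0.75 for EIF2AK2 and -0.45 for MAVS. In THP1 both KD libraries of DDX58, ADAR and EIF2AK2 were higher than both shCtrl libraries, and in Molm13 so were those of DDX58 and EIF2AK2, while those of ADAR were lower. For MAVS the KD libraries were higher in Molm13 and lower in THP1. Differences at this threshold were common, at 42.2% of all genes tested. The lines may have been handled separately, which cannot be told apart from the line. No group held enough libraries to look for a single library far from the others.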

How the results depend on the processing

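All 6 members kept their direction in each line and in the difference between lines under every alternative run. Of their adjusted p-values, 1 moved past the threshold, that of MAVS in THP1 without THP1 shCtrl replicate 1 (log2 fold change -0.12, adjusted p = 0.099, range over its alternatives 9.8e-05 to 0.099). A 2-fold limit left 2 members called in Molm13 instead of 4 and 4 in THP1 instead of 5 (ADAR is the one lost), 1302 genes instead of 3742 in Molm13 and 399 instead of 1012 in THP1. With no fold limit 9861 and 5484 genes were called in Molm13 and THP1, and with no RPKM minimum 4800 and 1544. Leaving out 1 library at a time gave 3598 to 3739 genes in Molm13, 987 to 1023 in THP1 and 7332 to 7839 for the difference between lines, with 3 to 4, 5 and 4 members; EIF2AK2 in Molm13 is the member lost, without Molm13 shCtrl replicate 2, and also without a filter on low counts. DESeq2 called 3284, 880 and 6762 genes. With a replicate block the counts were 3709, 1018 and 7961 genes and 4, 5 and 4 members. The block changed no member's call, and deviations of libraries with the same number did not go together (r = -0.0870 in Molm13 and -0.0146 in THP1 over genes). With 2 libraries a group this cannot show whether libraries of the same number share a culture or a batch. Library totals alone gave 13.0 RPKM for DDX58 in THP1 shPRMT9, 2.01 for IFIH1 in Molm13 shCtrl and 56.1 for ADAR in THP1 shCtrl, beyond their small SDs. Depth limits ZBP1 and the interferon genes, which could not be tested. With 2 libraries a group the spread is poorly known.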
